A study of Arabidopsis thaliana with 6 samples.

Results

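The late-only fallers are transcripts of Arabidopsis root cells whose signal held its level between 0 h and 2 h on auxin and dropped between 2 h and 6 h. Of 22746 probe sets, 87 met the limits, and all 6 arrays of the study were used to choose them. On the scale of log2(signal + 5), the means at 2 h and 0 h had to lie less than 0.75 apart and the mean at 6 h at least 2.5 below that at 2 h. Both 6 h signals also had to lie below all 4 other arrays, with a mean 0 h signal of at least 200. Over the whole array 14.8% of probe sets, and 19.7% of the tested ones, had both 6 h signals under the 4 others. These values chose the members, so their levels and falls are given as a description, with no test. Of the 87, 37 probe sets pair with 1 named locus, 2 pair with several genes and 48 are unnamed here.

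The cells came from J0121, a GAL4-GFP enhancer trap line that labels xylem pole pericycle cells with green fluorescent protein, and were isolated from roots by fluorescence-activated sorting. In each group seedlings first grew for 72 h after germination on 10 µM NPA, which blocks auxin transport. The 0 h group (2 arrays) was taken then, and the 2 h and 6 h groups (2 arrays each) after 2 h and 6 h on 10 µM NAA, a synthetic auxin, at seedling ages of 74 h and 78 h. The labels name the 2 arrays of a group biological replicates, with no word on separate cultures or pools, so the spread between them may be partly technical. Time on NAA and seedling age cannot be told apart in this design. Members of the pericycle and stele list of markers have no named probe set here, so the labelled cell type was not checked against them.

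Lateral roots of Arabidopsis begin in the pericycle next to the xylem, where auxin sets founder cells on a course to an asymmetric division. The primordium then has to pass the endodermis, the layer around the pericycle, whose walls are sealed by a lignin ring, the Casparian strip. Small peptides, receptor kinases and wall enzymes build and watch that barrier, and inhibitors of cyclin-dependent kinases hold cells back from mitosis. The series' design text places 0 h before S phase, 2 h at the passage from G1 to S, and 6 h near mitosis.

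The median signal of the 87 members was 704 and 833 on the 0 h arrays (replicates 1 and 2), 668 and 741 on the 2 h arrays and 80.4 and 60.3 on the 6 h arrays. Their median rank among all probe sets of an array lay between the 88.4th and the 90.7th percentile on the 4 earlier arrays. At 6 h it stood at the 49.9th and the 38.9th. The median member thus lay among the brighter probe sets of an array at 0 h and 2 h and near or below the middle at 6 h. The fall from 2 h to 6 h ranged from -6.61 to -2.5, with a median of -3.27, and 18 members fell by 4 or more on the log2 scale. The signal left at 6 h was 10.6% of that at 2 h for the median member, with a range of 1.02% to 18.7%. Since RNA was pooled over sorted cells, fewer cells that hold a transcript and less of it per cell cannot be told apart.

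**Figure D1:**
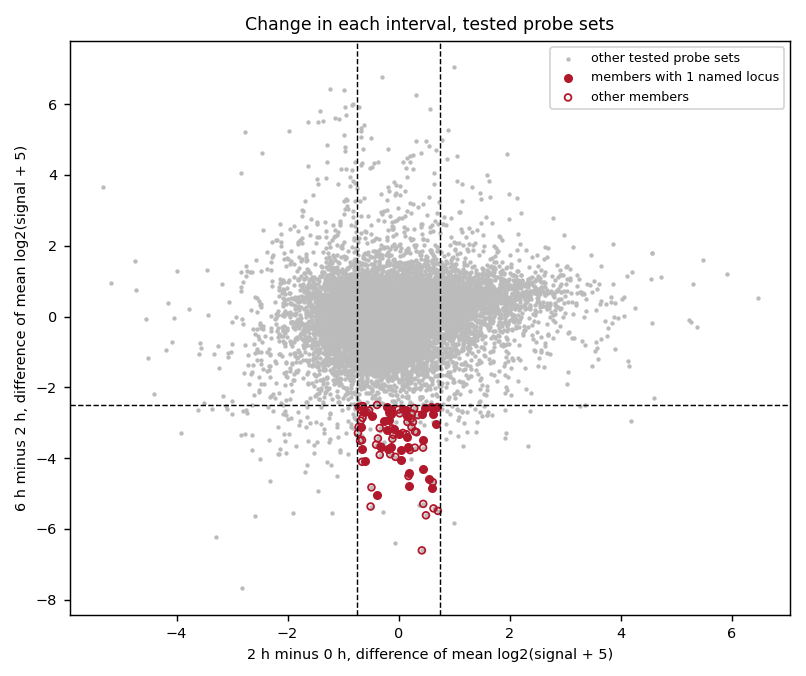
Each point is a tested probe set, with the difference of mean log2(signal + 5) between 2 h and 0 h on the x axis and between 6 h and 2 h on the y axis. Dashed lines mark the limits of 0.75 and -2.5, red points are members (filled with 1 named locus, open otherwise), and the members spread from -2.5 down to -6.61 across the whole width allowed at 2 h. Grey points inside the limits are the probe sets left out by family or by the limits on overlap and 0 h signal.

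The limits took the members from a larger set of transcripts that were low at 6 h. Among all probe sets 271 fell by 2.5 or more between 2 h and 6 h (1.19%), 257 of these had no overlap with the other arrays, and 202 of these had a mean 0 h signal of at least 200. At 2 h, 82 of the 202 had already moved down by 0.75 or more and 24 had moved up by as much, which left 96. A further 9 of the 96 were left out as class III peroxidases, a dirigent gene, GSO1, and UGT or GST genes. AT4G19880 was placed among the GST genes from knowledge of its family, not from the annotation used, and the 48 unnamed members may include genes of the families left out. Within the limit at 2 h the members had no common course: 45 were lower and 42 higher at 2 h than at 0 h in the mean. In 11 both 2 h arrays lay below both 0 h arrays, and in 8 both lay above. The share of all probe sets with such a separation was not counted, so nothing is read from these counts. The members' median was -0.06 between 2 h and 0 h, against -0.15 for all 13647 tested probe sets.

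All 87 members passed the filter on low values, and all were called lower at 6 h than at 2 h and than at 0 h in limma's fit, with an adjusted p under 0.05 as the threshold. Over all tested probe sets 5.59% were lower at 6 h than at 2 h and 3.13% higher, and 17.0% were lower and 16.8% higher at 6 h than at 0 h. Between 2 h and 0 h, limma called 0 of the members, 0 of them with an unadjusted p under 0.05, against 4.12% lower and 7.26% higher over all tested probe sets. Because the rule used these contrasts, nothing is read from the members' counts. Just inside the limit lay AT5G59540 (-2.56) and 4 unnamed probe sets (-2.55 to -2.5). Just outside lay AT3G28940 (-2.48) and 4 unnamed probe sets (-2.48 to -2.46).

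Of the 37 members with 1 locus, 26 are described by role, and 11 are given without one. Their falls ran from -5.05 to -2.56 with a median of -3.18, and 8 reached 4 or more. In the plot of these 37 genes by array, the 6 h points lie to the left within each row, as the rule requires.

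**Figure D2:**
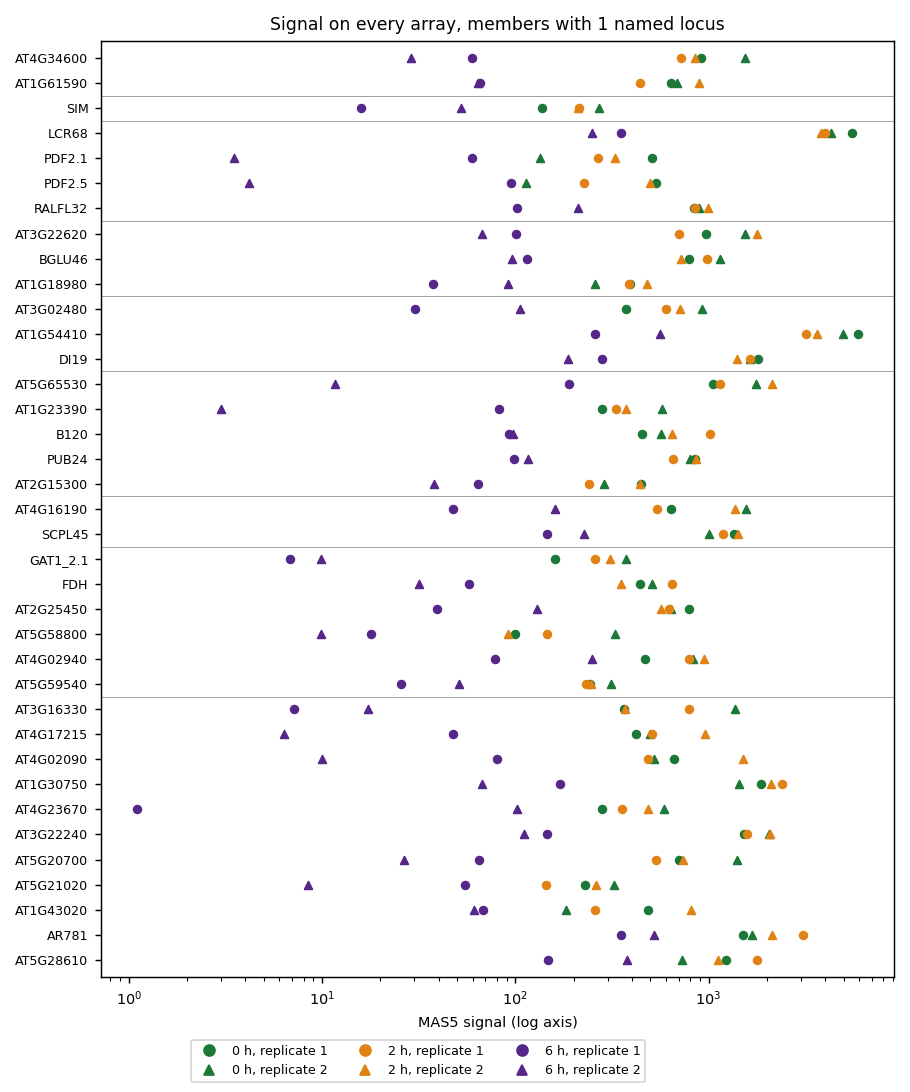
MAS5 signal on every array (x axis, log scale) of the 37 members with 1 named locus (1 row each, grouped by role), with colours for 0 h, 2 h and 6 h, circles for replicate 1 and triangles for replicate 2. The 0 h and 2 h points mix, both 6 h points lie to their left in each row as the rule requires, and the 6 h points are far apart in rows such as AT4G23670 (1.1 and 101.7).

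Among the members were a peptide and a kinase of the Casparian strip pathway. AT4G34600 is the locus of CIF2, a sulfated peptide that is made in the stele and signals to the endodermis. Its signals were 918 and 1544 at 0 h, then 722 and 847 at 2 h, but 59.7 and 28.9 at 6 h. Both 6 h values lie far under the lowest earlier one, and the log2 fall from 2 h was -4.07 ± 0.40 (SE of the limma fit, n = 2 arrays per group), or 16.8-fold. AT1G61590 is the locus of SGN1, a cytoplasmic kinase at the endodermal plasma membrane that acts in the same pathway. It read 639 and 690 at 0 h, then 442 and 895 at 2 h, but 65.2 and 64.3 at 6 h, a fall of -3.18 ± 0.38. The 6 h arrays were nearly equal here, and the 2 h arrays lay further apart.

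The receptor of the CIF peptides, GSO1, met the same limits and is no member only because the rule leaves it out. Its signals were 601 and 829 at 0 h, then 553 and 1213 at 2 h, but 75.6 and 26.1 at 6 h. Ligand, receptor and kinase were each lower on both 6 h arrays than on any earlier one. The rule requires this of each, and 19.7% of tested probe sets met that limit, so nothing is read from their agreement. Of the 11 listed Casparian strip genes, a list that does not hold CIF2, SGN1 and GSO1 are the only ones with a named probe set. The other 9, CASP genes and MYB36 among them, were not analysed here. Of the 20 suberin genes FACT alone was named, and it lay below the filter, with signals of 6.4 to 73.3. Whether endodermal cells entered the sorted fraction in different numbers at 6 h was not tested.

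SIM encodes a plant inhibitor of cyclin-dependent kinases that keeps cells from entering mitosis. Its signals were 137 and 272 at 0 h, then 214 and 212 at 2 h, but 15.9 and 52.2 at 6 h. The 2 h arrays were nearly equal, and the 6 h arrays lay further apart (-2.65 ± 0.55 from 2 h). Both 6 h signals lie below every earlier one, as the rule requires, so nothing is read from that. SMR2, the other gene named out of 10 listed CDK inhibitors, lay below the filter, with 71.8 and 36.7 at 0 h, then 19.1 and 38.7 at 2 h, with 16.6 and 45.1 at 6 h.

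**Figure D3:**
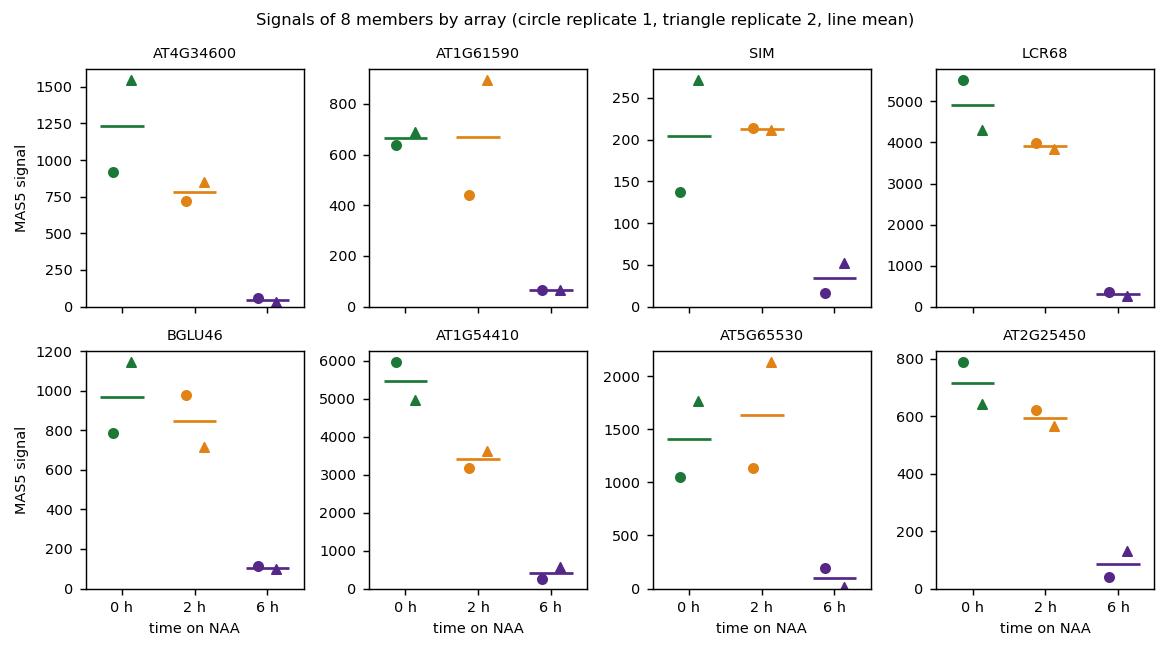
MAS5 signal (y axis, linear, from 0) of 8 members at 0 h, 2 h and 6 h on NAA (x axis), with circles for replicate 1, triangles for replicate 2 and lines for the mean of 2 arrays. In every panel both 6 h points lie below all 4 earlier ones, as the rule requires; AT1G61590 has 65.2 and 64.3 at 6 h, and SIM 15.9 and 52.2.

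Secreted peptides made up a group of 4 members. LCR68, also known as PDF2.3, PDF2.1 and PDF2.5 belong to the plant defensins, small cysteine-rich proteins that are exported from the cell. LCR68 read 5519 and 4310 at 0 h, then 3996 and 3842 at 2 h, but 351 and 250.1 at 6 h (-3.70 ± 0.32 from 2 h). Its replicates lay close together at each time. PDF2.1 read 507 and 135 at 0 h, then 269 and 328 at 2 h, but 59.5 and 3.5 at 6 h. PDF2.5 read 536 and 113 at 0 h, then 227 and 495 at 2 h, but 95.4 and 4.2 at 6 h. In PDF2.5 the lower 0 h array came close to the higher 6 h array, and for both genes 6 h replicate 2 was far below replicate 1. The falls from 2 h carry wide errors, with -3.69 ± 0.83 for PDF2.1 and -3.49 ± 0.97 for PDF2.5.

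PDF2.1 and LCR68 are direct neighbours in the annotation, with 0 protein-coding genes between them, and no other pair of named members lay within 10 genes of each other. Of 13 named defensins and related peptides, 4 were tested, and LCR69 is the one that is no member. It read 25397 and 13782.2 at 0 h, then 11980.3 and 18045 at 2 h, but 4239 and 3517 at 6 h, and was lower at 6 h than at 2 h (-1.93 ± 0.40, adjusted p = 0.0114, limma). The call was lost without 2 h replicate 2 (adjusted p = 0.128), 6 h replicate 1 (0.0686) or 6 h replicate 2 (0.117), and with no filter on low values (0.0632). Short tandem genes of this family can share sequence, so part of a signal may be shared between their probe sets. The RALF peptides, which are sensed by receptor kinases at the cell surface, had 3 tested genes. RALFL32, a member, had signals of 843 and 889 at 0 h, then 852 and 992 at 2 h, but 102 and 211 at 6 h. RALFL34, known in Arabidopsis for gating lateral root initiation, was higher at 6 h than at 2 h (3.26 ± 0.39, adjusted p = 4.71e-04, limma), with 1192 and 1701 at 6 h against 120 and 173 at 2 h. RALFL33 had a change of -0.67 ± 0.34 (adjusted p = 0.266).

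Members of wall metabolism and lipid transfer were BGLU46, AT3G22620 and AT1G18980. BGLU46 is a beta-glucosidase that releases lignin precursors from their glucosides. It read 788 and 1148 at 0 h, then 981 and 717 at 2 h, but 115 and 96.4 at 6 h (-2.94 ± 0.34 from 2 h), with the 4 earlier arrays in 1 band and the 6 h arrays together far beneath it. AT3G22620, a lipid transfer protein of the membrane-anchored type, read 970 and 1546 at 0 h, then 700 and 1777 at 2 h, but 101 and 67.2 at 6 h. AT1G18980, a germin-like protein, read 393 and 258 at 0 h, then 385 and 478 at 2 h, but 37.4 and 91.9 at 6 h. Of the 10 tested beta-glucosidases the other 9 had a median of -0.46. PYK10, the enzyme of endoplasmic reticulum bodies, was lower (-2.21 ± 0.45, adjusted p = 0.0110, limma) and BGLU15 higher (1.99 ± 0.30, adjusted p = 0.00193) at 6 h than at 2 h. BGLU15 was lower at 2 h than at 0 h (-2.12, adjusted p = 0.00154) and was not called between 6 h and 0 h (-0.14, adjusted p = 0.767). PYK10 lost its call without 2 h replicate 1 (adjusted p = 0.123) and without 6 h replicate 1 (0.125).

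Of 18 listed genes of the lignin precursor pathway 2 were named, and both were lower at 6 h than at 2 h by limma. Over all tested probe sets 5.59% were lower. The list was chosen with results of these data known, so nothing is read for the pathway from this count. CCR2, a cinnamoyl-CoA reductase, had 423 and 498 at 6 h against 2388 and 1641 at 2 h (-2.10 ± 0.32, adjusted p = 0.00199). HCT, which makes shikimate esters on the way to lignin, had 326 and 475 at 6 h against 1254 and 1986 at 2 h (-1.99 ± 0.37, adjusted p = 0.00604). Before 2 h their courses differed. CCR2 had 869 and 1034 at 0 h, below both 2 h signals, and HCT had 2564 and 3956, above both. The change from 0 h to 2 h was 1.06 for CCR2 (adjusted p = 0.057, limma) and -1.01 for HCT (adjusted p = 0.104), called in neither. At 6 h both were lower than at 0 h (adjusted p = 0.028 for CCR2, at -1.04, and 1.31e-04 for HCT). Neither gene met the limits of the rule, and no laccase could be tested. Among subtilases ATSBT5.2 was lower (-3.28 ± 0.40, adjusted p = 5.36e-04), 1 of 4 tested, and unlike the members it was already lower at 2 h than at 0 h (-3.92, adjusted p = 3.1e-04). Of 3 pectinesterases 0 were called between 6 h and 2 h by limma, and 1 had an unadjusted p under 0.05. HCT lost its call without 2 h replicate 2 (adjusted p = 0.0776) and without 6 h replicate 1 (0.0756).

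Members tied to dehydration were the dehydrin gene AT1G54410 (HIRD11), the late embryogenesis abundant gene AT3G02480, and DI19, a zinc finger protein named for drought. The dehydrin read 5962 and 4954 at 0 h, then 3184 and 3621 at 2 h, but 259 and 560.2 at 6 h. It is one of the 11 members whose 2 h arrays both lay below both 0 h arrays, at -0.68 in that step and -3.14 ± 0.38 in the next. AT3G02480 read 376 and 925 at 0 h, then 602 and 711 at 2 h, but 30.2 and 106 at 6 h. DI19 read 1804 and 1636 at 0 h, then 1642 and 1396 at 2 h, but 279.8 and 187 at 6 h. Its arrays were close at every time, and its fall was -2.70 ± 0.32.

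Kinases and ubiquitin ligases gave 5 members. The deepest fall of the 5 was in AT5G65530, a receptor-like cytoplasmic kinase of the kind that binds ROP GTPases. It read 1054 and 1770 at 0 h, then 1139 and 2128 at 2 h, but 189 and 11.7 at 6 h, so that its fall of -4.78 ± 0.84 rests on 6 h arrays far apart. B120, a receptor-like kinase with a lectin domain, read 453 and 568 at 0 h, then 1023 and 647 at 2 h, but 92.8 and 97.1 at 6 h. Both 2 h signals lay above both 0 h signals, and the 6 h pair was nearly equal (-3.03 ± 0.35 from 2 h). The leucine-rich repeat kinase AT2G15300 fell by 2.60 ± 0.43.

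PUB24, a U-box ubiquitin ligase that dampens immune responses, read 850 and 806 at 0 h, then 655 and 859 at 2 h, but 98.9 and 116 at 6 h (-2.75 ± 0.32). Its relatives in that role were not called between 6 h and 2 h: PUB22 had a change of 0.23 ± 0.42 (adjusted p = 0.788, limma) and PUB23 of -0.06 ± 0.30 (adjusted p = 0.926). PUB19 was the 1 call among the 7 tested relatives (-2.45 ± 0.35, adjusted p = 0.00144). AT1G23390, an F-box protein that targets chalcone synthase of the flavonoid pathway, read 282 and 577 at 0 h, then 331 and 376 at 2 h, but 82.5 and 3 at 6 h.

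**Figure D4:**
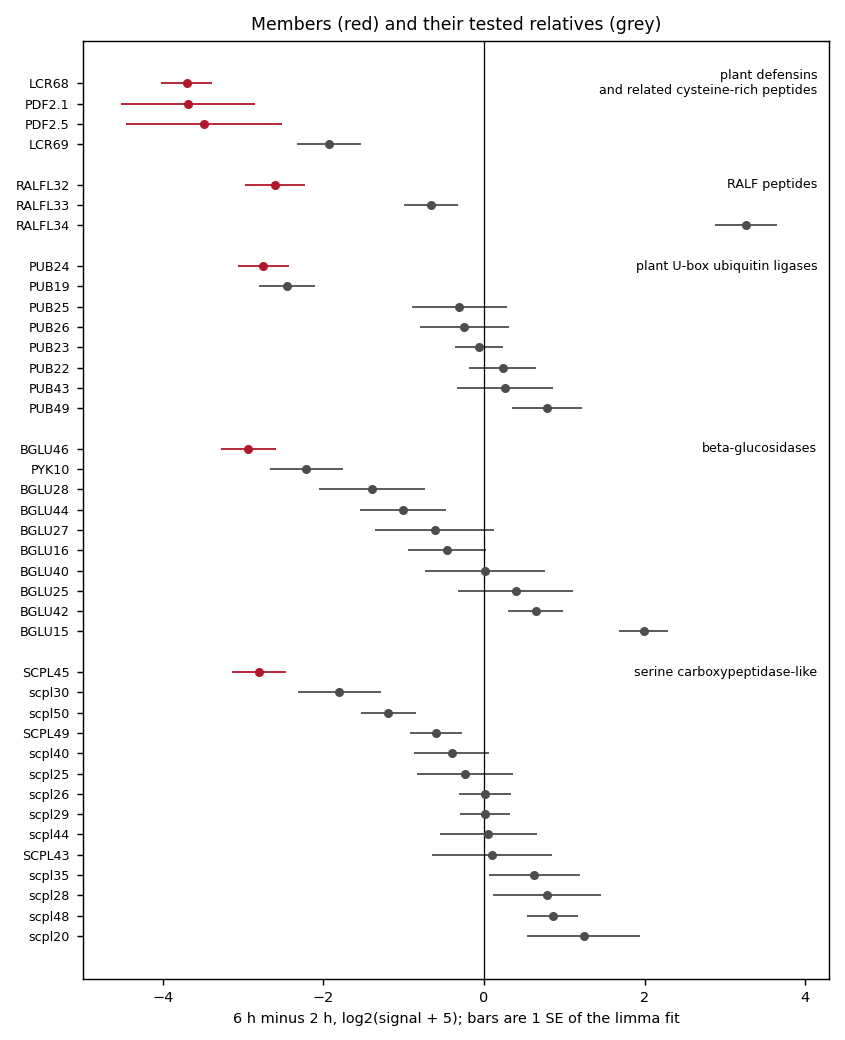
Log2 difference between 6 h and 2 h (x axis, with 1 SE of the limma fit) for members in red and their tested relatives in grey, in 5 families. The members stand at the low end of each family because the rule chose them for this difference, while RALFL34 at 3.26 and BGLU15 at 1.99 lie on the other side of 0.

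Metabolic enzymes numbered 6. GAT1_2.1, a glutamine amidotransferase, read 161 and 375 at 0 h, then 258 and 307 at 2 h, but 6.8 and 9.9 at 6 h, which left 2.95% of its 2 h signal. Both 6 h signals lie where probe sets are seldom called present, and its fall was -4.43 ± 0.52. AT2G25450, the enzyme that hydroxylates a side chain of glucosinolates, read 787.8 and 641 at 0 h, then 622 and 566 at 2 h, but 39.5 and 130 at 6 h. The glucosinolate transporters GTR1 and GTR2 were lower at 6 h than at 2 h as well (-1.87 ± 0.37, adjusted p = 0.00954, and -2.85 ± 0.53, adjusted p = 0.00618, limma). They were 2 of 6 tested nitrate and peptide transporters, against 5.59% lower over all tested probe sets. GTR1 lost its call without 2 h replicate 1 (adjusted p = 0.119) and without 6 h replicate 1 (0.113), and GTR2 without 2 h replicate 1 (0.0672) and without 6 h replicate 2 (0.0573). FDH, which oxidises formate in mitochondria, read 444 and 511 at 0 h, then 643 and 353 at 2 h, but 57.6 and 31.8 at 6 h. Its mean log2 level was the same at 2 h and 0 h to 2 decimals, and it fell by 3.33 ± 0.41 after that. AT4G02940, which removes methyl marks from messenger RNA, had 78.3 and 248 at 6 h against 794 and 953 at 2 h, and kept 18.7% of its 2 h signal, the most of any member. The other oxidoreductases, AT5G59540 and AT5G58800, fell by 2.56 and 2.70.

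The proteases SCPL45, a serine carboxypeptidase-like enzyme, and AT4G16190, a papain-like cysteine protease, were also members. SCPL45 read 1361 and 1003 at 0 h, then 1192 and 1415 at 2 h, but 146 and 227 at 6 h (-2.80 ± 0.34 from 2 h). Of the 13 other tested genes of its family 0 were called lower and 0 higher between 6 h and 2 h by limma, 3 had an unadjusted p under 0.05, and their median was 0.02. AT4G16190 read 635 and 1566 at 0 h, then 540.4 and 1378 at 2 h, but 47.8 and 161 at 6 h. On all 3 occasions replicate 2 was the higher array, and the fall was -3.21 ± 0.61.

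The 11 named members without a role here ranged from -5.05 to -2.56 with a median of -3.78. The deepest fall among all 37 was that of AT3G16330, with 366 and 1374 at 0 h, then 788 and 368 at 2 h, but 7.1 and 17.3 at 6 h (-5.05 ± 0.60). Both of its 6 h signals are in a range seldom called present, so the level reached there is poorly known. Among the 11, AT4G17215 (-4.85), AT4G02090 (-4.59) and AT1G30750 (-4.32) followed. AT4G23670, of the family of Bet v 1-like proteins, read 280.3 and 588 at 0 h, then 356 and 488 at 2 h, but 1.1 and 101.7 at 6 h. Its 6 h arrays disagree so widely that the SE reached 0.97 on a fall of -4.05. At the shallow end stood AR781 (-2.56 ± 0.34) and AT5G28610 (-2.56 ± 0.46).

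The 48 unnamed probe sets had a median fall of -3.31, with a range of -6.61 to -2.5. The deepest, 265561_s_at, read 5997 and 10911.2 at 0 h, then 9451 and 12377.1 at 2 h, but 76.1 and 146 at 6 h. The one brightest at 0 h, 253276_at, read 14934.6 and 17610.1 at 0 h, then 8115 and 12933.7 at 2 h, but 1883 and 1644 at 6 h, and was thus still bright when it was lowest. Probe sets ending in _s_at match several transcripts of a family, and 5 members are of this kind.

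At 6 h the replicates of the members lay further apart than at the other times. The median absolute log2 difference between replicates was 0.63, 0.56 and 1.00 for the members at 0 h, 2 h and 6 h, against 0.51, 0.35 and 0.38 for all tested probe sets. On signal + 5, 17 of the 87 members were over 4-fold apart at 6 h, against 1.72% of tested probe sets. Replicate 2 was the lower in 14 of the 17 and in 51 of all 87 members, against 47.7% of tested probe sets. In 43 members the 6 h arrays were less than 2-fold apart. The members are dim at 6 h by choice and the tested probe sets are not, so these spreads compare unlike signal levels. At 6 h, 12 members had both signals under 40 and 13 had both at 160 or more.

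**Figure D5:**
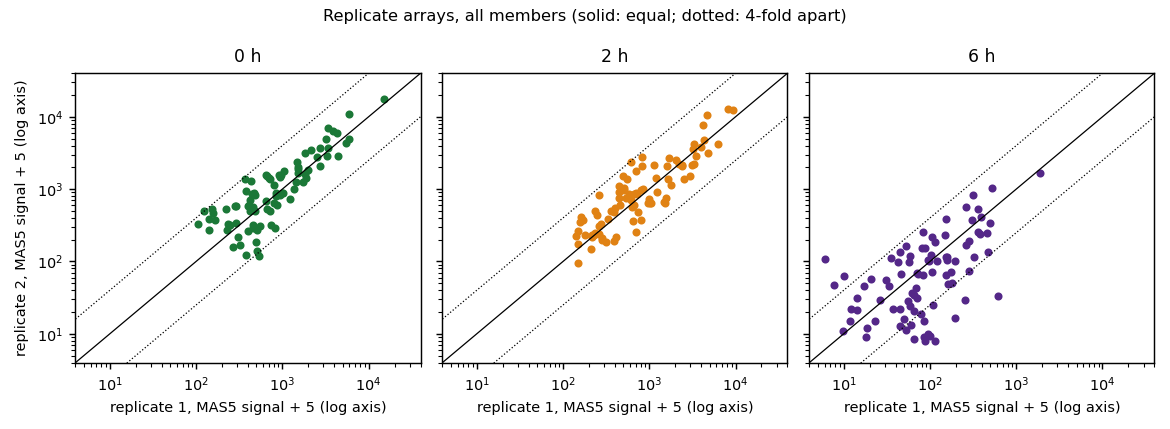
Signal + 5 on replicate 2 (y axis, log) against replicate 1 (x axis, log) of the 87 members at 0 h, 2 h and 6 h, 1 panel a time, with lines for equality and for a 4-fold difference. At 6 h 17 members lie beyond 4-fold, and 14 of these are lower on replicate 2.

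Detection calls were available for 2 h replicate 1 alone, where 86 of the 87 members were called present, against 54.8% of all probe sets. The rule's limits on the 0 h signal and on the step to 2 h chose bright members, so nothing is read from this count. On that array 99.9% of probe sets with a signal of 320 or more were present, against 45.6% between 40 and 80 and 12.9% between 20 and 40. Signals under 10 were present in 0.053%, and 20 members had at least 1 such signal at 6 h. For those the size of the fall is set in part by the pseudocount of 5.

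The hybridisation controls, bacterial and phage transcripts added to each sample, differed in brightness between replicates. Their geometric mean was 13624.3 and 2609 at 0 h, then 1780.2 and 6001 at 2 h, with 2798 and 10424.7 at 6 h. Among the brighter arrays of each time the members' median difference between 6 h and 2 h was -3.44 (range -8.33 to -1.56), and among the dimmer arrays -3.07 (range -6.87 to -1.21). The rule fixes the direction in each set, so only the sizes are read. The 3′ to 5′ ratio of the older actin control, a sign of RNA integrity, was 2.22 and 1.40 at 0 h, then 2.98 and 1.38 at 2 h, with 4.48 and 3.84 at 6 h. It was thus highest at 6 h, while the newer actin set gave 1.32 and 0.567, 0.979 and 0.625, and 0.555 and 0.573 at these times. The older GAPDH control gave 5.78 and 2.68, 4.73 and 3.93, and 4.37 and 3.42. The newer one gave 1.01 and 1.74, 1.31 and 1.44, and 1.28 and 1.19. Ubiquitin gave 8.31 and 5.99, 6.13 and 9.71, and 8.81 and 10.7 in the older set. In the newer set it gave 5.83 and 3.40, 3.725 and 4.55, and 5.24 and 5.65. The control sets thus did not share a course over time. The part of RNA integrity in the members' fall was not tested. Per the labels, total RNA was below detection before labelling.

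The genes of the 37 members with 1 locus were short. Their median span was 1476 bases, with 12 (32.4%) under 1000 bases, while the 3747 tested 1-locus probe sets with a 0 h signal of at least 200 had a median of 2404 bases and 5.26% under 1000. The span is that of the TAIR10.1 annotation, introns included, and is given as a description.

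Other listed families were tested between 6 h and 2 h by limma. Of 5 WRKY factors, regulators of defence genes, 3 were lower: WRKY53 (-2.17, adjusted p = 0.0065), ZAP1 (-1.76, adjusted p = 0.0177) and WRKY6 (-1.63, adjusted p = 0.0145). WRKY53 and WRKY6 had been higher at 2 h than at 0 h (1.91, adjusted p = 0.012, and 1.66, adjusted p = 0.0121), and were not called between 6 h and 0 h (-0.25, adjusted p = 0.677, and 0.03, adjusted p = 0.963). ZAP1 was lower at 6 h than at 0 h too (-2.79, adjusted p = 3.45e-04). Of 4 cytochrome P450 genes, CYP71B37 (-2.87, adjusted p = 0.0238) and CYP71B6 (-1.42, adjusted p = 0.0132) were lower. CYP71B37 read 484 and 280 at 0 h, then 96.8 and 87.5 at 2 h, but 1.6 and 21.8 at 6 h. Its first step was -1.94 (adjusted p = 0.0947), and its 6 h signals were in a range seldom called present. The size of its fall from 2 h thus depends on the pseudocount, with -3.52 when 4 times smaller and -1.90 when 4 times larger. The match by symbol and synonym found no germin-like gene, not even the member AT1G18980, so relatives of that gene could not be looked at here. Of 7 sugar transporters, 5 bHLH factors and 1 MATE transporter 0 were called by limma, and 2 bHLH factors had an unadjusted p under 0.05. Over all lists and families 13 of the 74 tested genes that are not members were lower and 2 higher, against 5.59% and 3.13% of all tested probe sets. The lists were chosen with results of these data known, so nothing particular to them is read from these counts. Leaving out 1 array at a time ended the call of 10 of these 15 genes at least once. Without 2 h replicate 1 the adjusted p was 0.109 for WRKY6, 0.124 for ZAP1, 0.108 for CYP71B6 and 0.156 for CYP71B37. Without 2 h replicate 2 it was 0.0848 for WRKY6, 0.111 for ZAP1, 0.0948 for CYP71B6, 0.13 for CYP71B37 and 0.0779 for WRKY53. Without 6 h replicate 1 it was 0.0675 for WRKY6, 0.129 for ZAP1, 0.078 for CYP71B6, 0.0988 for CYP71B37 and 0.0726 for WRKY53. Without 6 h replicate 2 it was 0.117 for WRKY6 and 0.0956 for CYP71B6. WRKY6 also lost its call without the trend in the fit (0.0529), and CYP71B37 in a fit of only the 4 arrays compared (0.0776). RALFL34, BGLU15, CCR2, PUB19 and ATSBT5.2 kept their calls under every alternative run.

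Markers of other root tissues had few named probe sets. The summed signal of both listed cortex genes was 173.7 and 153 at 0 h, then 62.3 and 128 at 2 h, with 77.8 and 89.9 at 6 h. For 2 of 8 epidermis and root hair genes it was 119 and 87.0 at 0 h, then 35.3 and 65.6 at 2 h, with 73.8 and 156 at 6 h. The 1 named of 7 phloem markers had 41.3 to 119.9 over all arrays. RCA, the rubisco activase of green tissue and the 1 named of 6 such markers, had 155.1 and 192 at 0 h, then 177.2 and 244 at 2 h, but 84.8 and 67.3 at 6 h. Both 6 h signals lie below all earlier ones, as in the members. RCA was lower at 6 h than at 0 h (-1.14, adjusted p = 0.0441, limma) and had a change of -1.40 from 2 h (adjusted p = 0.05, not called), and its part in the members' fall was not tested. The Casparian strip genes SGN1 and GSO1 together had 1239.9 and 1518 at 0 h, then 995 and 2108 at 2 h, but 140.8 and 90.4 at 6 h, and both genes met the limits of the rule. The xylem and root cap markers had no named probe set. The Casparian strip genes were also the listed endodermis markers, and SCR, the 1 endodermis marker outside that list, had no named probe set. The 2 named of 8 genes that respond to cell isolation, STZ and WRKY53, summed to 4037 and 4315 at 0 h, then 6223 and 11165.3 at 2 h, with 3170 and 5564 at 6 h. STZ made up most of the sum on every array and was not called between 6 h and 2 h (-0.89, adjusted p = 0.21, limma). WRKY53 was called lower in that step (-2.17, adjusted p = 0.0065), though not in every fit that left out 1 array. What part the cell make-up of the sorted fraction has in the members' fall was not tested.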

How the data were processed

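Transcripts of sorted root cells were measured on 6 one-colour Affymetrix arrays, 2 for each of 3 times. The deposited table gives a signal intensity per probe set on a linear scale, made with MAS5 per the submitters' processing notes, with no version named. A deposited array file of 2 h replicate 1 adds a detection call and its p-value, of which the calls were used, and its signals equal those of the table in 22810 of 22810 rows. The 64 control probe sets were left out. Depth does not apply to arrays, and their number limits the precision.

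Values were log2(signal + 5). Probe sets under the 40th percentile of mean log2 were filtered out, which left 13647. One limma 3.58.1 fit (R 4.3.3) over all 6 arrays used empirical Bayes with a trend and Benjamini-Hochberg adjustment at 0.05. Signals are scaled to a common mean, so changes are relative to the array. On 13647 simulated probe sets, limma recovered 28% of 100 lowered by 1.5 and 64% of 100 lowered by 2.5 between 6 h and 2 h, with 5 false calls. The simulation used independent normal noise and, for unchanged probe sets, the same mean at every time. It held fewer changed probe sets than limma called in the data, so its shares are no estimate of power or false calls here. Genes came from the platform annotation matched to TAIR10.1 loci (13436 of 13513 probe sets with 1 gene, and 503 had several). Family lists came from symbols and synonyms, and 4 patterns that caught genes of other families were corrected after values were seen.

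Members and lists were chosen with earlier results of these data known. Lists of defensins, RALF peptides, carboxypeptidases and U-box ligases were added after values were seen. The 30 named loci with the most negative fall were named, then others with a symbol, the probe sets nearest the limit, and list genes past the test. Alternatives were the pseudocount, the filter, quantile scaling, median centring, no trend, a replicate block, only the arrays compared, and leaving out each array. Those for 6 h or 2 h against 0 h, and the block on hybridisation controls, were chosen after seeing the data. No sequences were used here.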

Additional observations from a re-analysis of the deposited data

How the results depend on the processing

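The rule fixes the direction of the members' fall when an array is left out or the brighter or dimmer arrays are taken, so only sizes are read from those alternatives. Of 444 alternative values of the named members, 399 moved by less than the replicate spread, 45 moved by more, and the highest was -1.21. The members' median was -2.88 with a pseudocount 4 times larger, against -3.27, and ran from -3.43 to -3.12 without 1 array. The rule then found 77 to 94 probe sets, of which 61 to 70 were among the 87. With arrays centred on their medians it found 103, with 74 shared.

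Counts of calls by limma depended on single arrays. Without 1 array, 306 to 1014 probe sets were lower and 148 to 720 higher at 6 h than at 2 h (763 and 427 with all arrays). The counts were lowest for lower calls without 2 h replicate 1 and for higher calls without 6 h replicate 2. For 6 h against 0 h the ranges were 1569 to 2146 lower and 1443 to 2343 higher (2315 and 2297), and for 2 h against 0 h 116 to 524 lower and 357 to 1071 higher (562 and 991). List and family genes ran from 4 to 17 lower (13 with all arrays), and 2 were higher in each case. Without the trend 486 were lower at 6 h than at 2 h, and 323 lower and 653 higher at 2 h than at 0 h. For 6 h against 0 h the nearly even split turned to more higher calls under several settings, among them the scaling, with 2209 lower and 2413 higher under quantile normalization and 1708 and 2317 with centring. Centring left 238 lower and 1125 higher at 2 h than at 0 h, and a fit of only the 4 arrays compared called 753 higher at 6 h than at 2 h. The cause of these shifts was not tested.

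Same-numbered arrays deviated together with correlations of 0.0565, 0.105 and 0.153 over the 3 pairs of times, so the numbers were not taken to pair the samples. With a replicate block, limma called 1046 lower and 616 higher at 6 h than at 2 h, and with a block on the brightness of hybridisation controls 588 and 316.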

Other observations

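The 9 probe sets that met every numerical limit but were left out by family include genes of lignin and its barrier. AT5G66390, a class III peroxidase, had 5196 and 3809.6 at 0 h, then 4262 and 4205 at 2 h, but 328 and 2.6 at 6 h (-6.40 ± 1.19 between 6 h and 2 h). Its 6 h replicates lie far apart. AT2G39430, a dirigent gene, and AT1G44970, another peroxidase, had the same shape, at -5.31 ± 0.83 and -5.53 ± 1.01, each with 6 h replicate 2 below 10. The peroxidases Prx37 and AT4G33420 had falls of -2.98 ± 0.50 and -2.72 ± 0.32. GSTU20 and AT4G19880, of the glutathione transferases, stood at -3.24 ± 0.38 and -2.83 ± 0.48, and GT72B1, a glucosyltransferase acting on lignin precursors, at -2.62 ± 0.35. All are chosen by the same values as the members and carry no test.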
